A study of Mus musculus with 6 samples.

Results

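E2A binding in neural stem cells that lack E12 was set directly against E2A binding in neural stem cells that lack E47. The comparison used the deposited peak list of the E12 knockout (E12KO, genotype E12-/-) and that of the E47 knockout (E47KO, genotype E47-/-), which are 2 of the 6 samples of the series. The other 4 are wild-type libraries 1 to 3 and 1 input library. All samples were C57BL/6J cells from E12.5 embryos (mid-gestation), cultured as proliferating neural stem cells with 20 ng/ml each of FGF-2 and EGF, and crosslinked with EGS followed by formaldehyde. Chromatin was precipitated with an antibody against E2A (sc-349X). Each knockout was represented by 1 library, and the labels do not say how many embryos or cultures it came from or how the alleles were made. The E12KO list held 25229 peaks and the E47KO list 22176 peaks. All of them were used.

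E2A is the product of Tcf3, a class I basic helix-loop-helix gene whose transcript is spliced to give E12 or E47. Both proteins bind the E-box, the hexamer CANNTG, as dimers, including dimers with tissue-restricted partners such as proneural factors. Id proteins block E12 and E47 by forming dimers that cannot bind DNA. Cells without E12 can still make E47, and cells without E47 can still make E12, so the comparison asks where E2A signal was called with one form absent and where with the other absent. A peak list holds called regions and not occupancy levels. The knockout lists give a position, a width, an annotated feature and a nearest gene for each peak, with no score, so peak width is the only size available here. With 1 library per knockout there is no replicate error and no test between the knockouts. Intervals below are 95% Wilson intervals that cover counting error only, and the read depth behind the lists is unknown.

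Most peaks were found in both knockouts. A peak was counted as shared when it overlapped a peak of the other list by at least 1 bp. Of the E12KO peaks, 18953 were shared and 6276 (24.9%, interval 24.35 to 25.41%) had no E47KO peak over them. Of the E47KO peaks, 19127 were shared and 3049 (13.7%, interval 13.3 to 14.21%) had no E12KO peak. The single-list peaks were mostly not near misses. Only 189 of the E12KO-only peaks (3.01%) and 119 of the E47KO-only peaks (3.90%) lay within 500 bp of a peak in the other list, and 67.65% and 64.55% lay more than 10 kb from one.

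The lists differ in length, which by itself can leave more peaks unmatched in the longer list. When the E12KO list was reduced to its 22176 widest peaks, 4496 E12KO peaks (20.27%) and 4303 E47KO peaks (19.4%) were unmatched. E12KO still held more unmatched peaks, but the shares were now close to each other. The 3053 E12KO peaks dropped were 326 bp wide or narrower, and some had been the partners of narrow E47KO peaks.

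The wild-type lists show how much lists of 1 genotype differ. Each pair of lists was cut to the 12772 widest peaks, the length of the wild-type replicate 2 list. Between wild-type replicates 2 and 3, 34.15% and 36.02% of peaks were then unmatched. Between the knockouts the values were 24.14% (E47KO) and 24.93% (E12KO). At the same length, 22.97% of E47KO peaks were absent from wild-type replicate 3, and 23.77% of E12KO peaks were. The knockouts thus differed from each other about as much as each differed from wild-type replicate 3. Of the wild-type replicate 2 peaks, 36.89% were absent from E12KO and 32.73% from E47KO at this length. Replicate 2 entered with all its peaks, narrow ones included, while the other lists kept only their widest. Against the full lists, 11.85% of replicate 2 peaks were absent from replicate 3, 10.47% from E12KO and 12.94% from E47KO. Why pairs with replicate 2 were higher at equal length was not tested. Wild-type replicate 1, with 6814 peaks, was left out of these pairs.

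**Figure D1:**
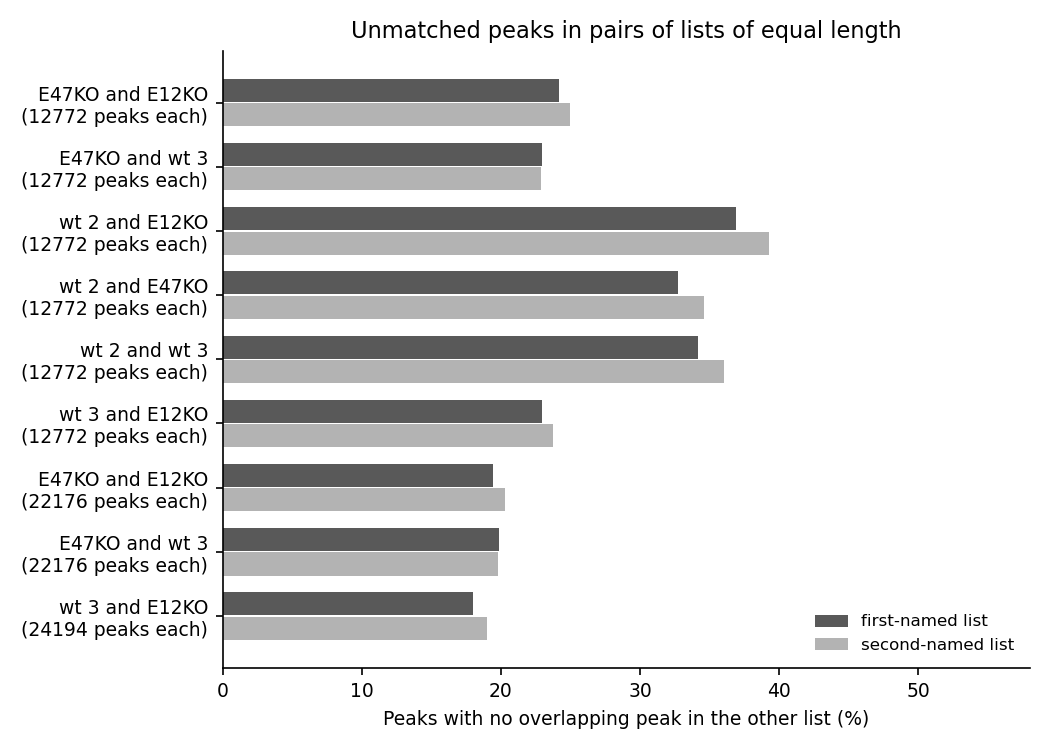
Share of peaks (x axis, %) with no overlapping peak in the other list, for pairs of lists cut to the same number of widest peaks; dark bars stand for the first-named and light bars for the second-named list. At 12772 peaks each, the pair of knockouts (24.14% and 24.93%) lies near the pairs with wild-type replicate 3, and every pair with wild-type replicate 2 lies higher, such as replicates 2 and 3 (34.15% and 36.02%).

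Single-list peaks were narrow. The median width was 423 bp (interval of the median 417 to 429 bp) for E12KO-only peaks against 693 bp for shared E12KO peaks. It was 345 bp (338 to 351 bp) for E47KO-only peaks against 592 bp for shared E47KO peaks. The unmatched share dropped with width in both lists. Among peaks under 300 bp, 61.91% of E12KO and 42.17% of E47KO peaks were unmatched. Among peaks of 1500 bp or more, the shares were 4.79% (74 of 1545) and 0.471% (4 of 850).

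**Figure D2:**
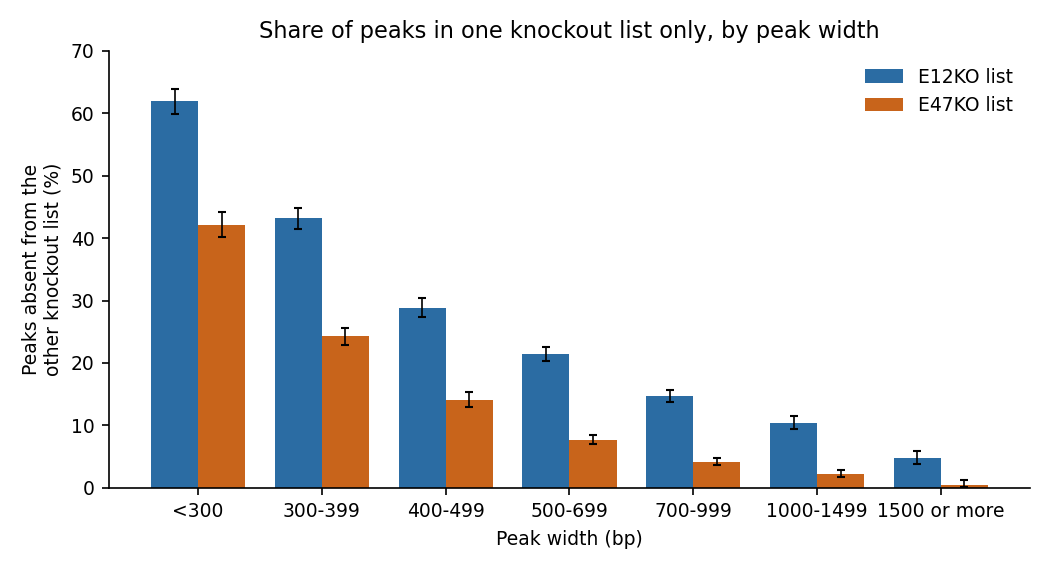
Share of peaks absent from the other knockout list (y axis, %) by peak width (x axis, bp); blue bars are E12KO, orange bars E47KO, and error bars are 95% Wilson intervals for counting error. Both lists step down from 61.91% and 42.17% below 300 bp to 4.79% and 0.471% at 1500 bp or more.

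Promoters made up a larger share of the E12KO peaks that E47KO lacked than of shared peaks. A promoter peak here lies within 1 kb of an annotated start site. Such peaks made up 33.54% (interval 32.38 to 34.72%) of E12KO-only peaks and 25.54% (24.92 to 26.16%) of shared E12KO peaks. In the E47KO list the shares were 24.93% (23.42 to 26.49%) of single-list peaks and 25.39% of shared ones. Read the other way, 30.31% of all E12KO promoter peaks had no E47KO partner, against 22.99% of its intergenic peaks. In the E47KO list 13.53% of promoter peaks and 13.55% of intergenic peaks had no partner. The distances to the nearest start site showed the same pattern. The median was 10687 bp for E12KO-only peaks against 18573 bp for shared peaks, and 17877 bp for E47KO-only peaks against 18441 bp for shared peaks.

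At matched width, however, the E47KO-only peaks also lay at promoters more often than shared peaks. Among E47KO peaks from 500 to under 700 bp, 42.5% of the single-list and 23.76% of the shared peaks were at promoters. Among those from 700 to under 1000 bp the shares were 61.71% and 31.48%. The E12KO list gave 43.94% and 20.37% in the narrower class and 62.16% and 27.97% in the wider one. Of the 74 E12KO-only peaks of 1500 bp or more, 67 lay at promoters. Below 300 bp the E47KO shares, 12.75% and 13.25%, overlapped within their intervals. At equal list length the promoter share was 41.33% of E12KO-only and 20.1% of E47KO-only peaks. That cut removed only E12KO peaks of 326 bp or narrower, and narrow peaks seldom lay at promoters. Under 300 bp, 14.24% of the single-list and 10.42% of the shared E12KO peaks did. How much of the wider gap follows from the cut was not tested. A promoter excess in one direction was not restricted to the pair of knockouts. Between wild-type replicates 2 and 3 at 12772 peaks each, promoters made up 49.91% of the replicate 3 peaks that replicate 2 lacked and 10.84% of the reverse. At the same length the values between the knockouts were 49.18% (E12KO only) and 25.2% (E47KO only). These pairs are not alike, because the cut kept every replicate 2 peak but only the widest peaks of the other lists. With full lists the shares were 28.23% (replicate 3 only) and 12.29% (replicate 2 only), and 33.54% and 24.93% between the knockouts. How much of the values at 12772 peaks follows from the cut was not tested.

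**Figure D3:**
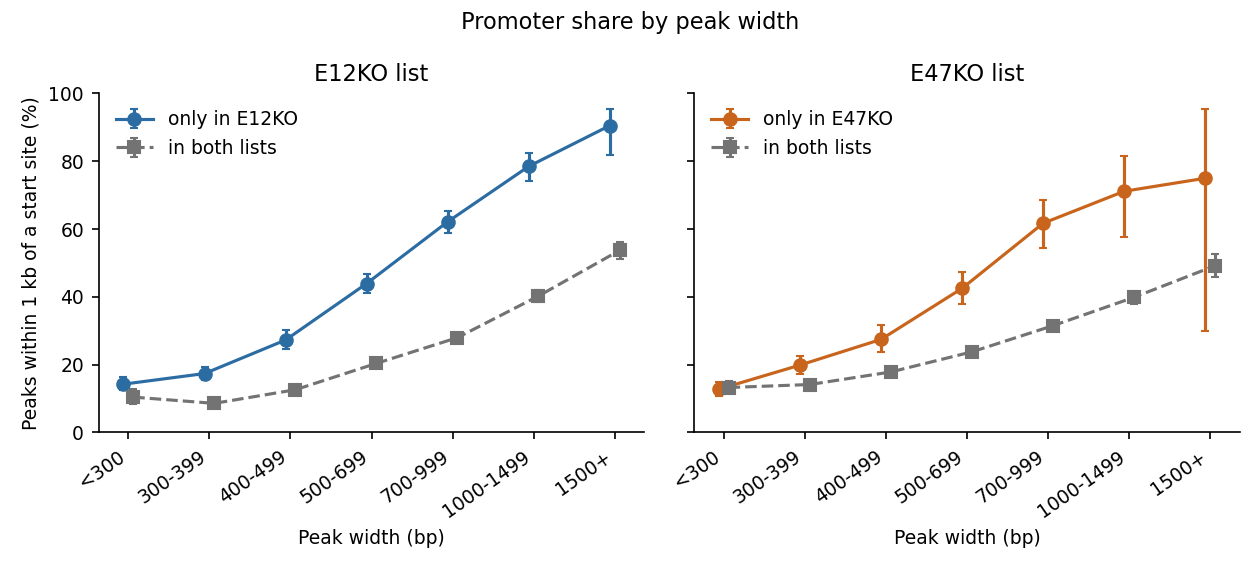
Share of peaks within 1 kb of a start site (y axis, %) by peak width (x axis, bp) for the E12KO list (left) and the E47KO list (right); coloured circles are single-list peaks, grey squares are peaks in both lists, and error bars are 95% Wilson intervals. From 700 to under 1000 bp, single-list peaks stand at 62.16% and 61.71%, above the shared peaks at 27.97% and 31.48%.

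Shared peaks were slightly wider in the E12KO library. For the 18449 peaks that matched one to one, the median log2 ratio of E12KO to E47KO width was 0.16 (interval 0.16 to 0.17), and 66.83% were wider in E12KO. The ratio was larger at promoters, with a median log2 of 0.23 over 4579 peaks, than at intergenic sites, with 0.14 over 6390 peaks. At least a 2-fold greater width was seen for 1042 peaks in E12KO (5.65%) and for 149 in E47KO (0.808%).

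Promoters accounted for 4579 of the 18449 one-to-one peaks, for 461 of the 1042 that were at least 2-fold wider in E12KO and for 57 of the 149 in E47KO. The 5 largest ratios in each direction follow. The promoter peak of Rai1, the gene mutated in Smith-Magenis syndrome, was 2375 bp wide in E12KO and 361 bp in E47KO. That of Socs1, a feedback inhibitor of cytokine signalling, measured 2195 and 349 bp. Mlec, which encodes the endoplasmic reticulum lectin malectin, had 2477 and 479 bp, Limd2 had 2070 and 415 bp, and an intergenic peak nearest to Arl4c had 1568 and 308 bp. In the opposite direction, the promoter of Aes, a Groucho-family corepressor, carried a peak of 422 bp in E12KO and 2016 bp in E47KO. Pou3f3, a POU factor of cortical progenitors and neurons, had 435 and 1778 bp, and Hist1h2ac had 456 and 1717 bp. The E12KO and E47KO widths were 372 and 1228 bp near Atp6ap1l and 319 and 1040 bp at A630089N07Rik.

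The widest regions were held in common. The 10 widest E12KO peaks that overlapped an E47KO peak reached at least 4734 bp, and several of them met a series of narrower E47KO peaks. The widest, near Ttc34, measured 12513 bp in E12KO and 12622 bp in E47KO. An E12KO peak of 8516 bp nearest to Mir9-1, which encodes a neural microRNA, met E47KO peaks of 2291, 1219 and 4551 bp. The Hes1 promoter, of the Notch effector that keeps neural progenitors undifferentiated, carried 1 peak of 4734 bp in E12KO and peaks of 3005 and 734 bp in E47KO. The promoter of Nes, the intermediate filament gene used as a neural stem cell marker, carried 4780 bp in E12KO and peaks of 826, 881 and 1875 bp in E47KO. Peaks at Tle3, Erf, Lfng and Tnrc18 were divided in the same way, while Midn (5478 and 5155 bp) and Brd2 (4830 and 4729 bp) kept single peaks. In all, 285 E12KO peaks covered 2 or more E47KO peaks and 118 E47KO peaks covered 2 or more E12KO peaks. Counts of peaks therefore depend in part on how a wide region is divided.

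The widest peaks found in E12KO alone lay at promoters in 7 of 10 cases, and the other 3 lay 1493 to 1884 bp from a start site. The widest of all, 3148 bp at chr4:109652441-109655588 (mm9, as are all peak positions here), was annotated to the 5' UTR of Dmrta2, a regulator of cortical progenitors. It lay 1144 bp from the nearest E47KO peak. Promoter peaks followed at Ppp3ca, the calcineurin catalytic subunit (chr3:136332134-136334858, 2725 bp), at the potassium channel gene Kcnd3 (chr3:105253738-105256329, 2592 bp) and at the glycolytic gene Gapdh (chr6:125115059-125117481, 2423 bp). Tcf7l1, a repressor of Wnt target genes, had a promoter peak of 2380 bp and Bmpr2, the type II BMP receptor, one of 2196 bp. A peak of 2180 bp lay at a promoter of Pax6, a determinant of cortical progenitors, although Pax6 had 4 E47KO peaks elsewhere. Tnrc18 (2613 bp, 5' UTR), Zic5 (2362 bp, first exon) and Msl1 (2245 bp, promoter) complete the 10. The wild-type replicate 3 list had a peak over each of these 10 regions, wild-type replicate 1 over those at Ppp3ca, Tcf7l1 and Msl1, and wild-type replicate 2 over that at Msl1.

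The widest peaks found in E47KO alone were narrower. The first lay in an intron upstream of Fam160b1 (chr19:57420723-57423092, 2370 bp) and was 639 bp from an E12KO peak. The promoter of Mus81, a structure-specific endonuclease, had 1726 bp, and that of Gab1, an adaptor of receptor tyrosine kinases, had 1675 bp (chr8:83403215-83404889). The Gab1 peak was present in all 3 wild-type lists and absent from E12KO, with the nearest E12KO peak 8328 bp away. Paip1 (1576 bp), Bin1 (1447 bp), Smg1 (1441 bp), Vapa (1403 bp) and Bmp2k (1380 bp) also carried promoter peaks, and Dock10 (1397 bp) an intronic one. At the promoter of Myc, the proto-oncogene that drives growth and proliferation, a peak of 1422 bp (chr15:61818693-61820114) was called in E47KO and in no other list. Myc had 7 peaks in E47KO and 5 in E12KO, the closest E12KO peak being 1564 bp away. The other 9 regions overlapped a wild-type replicate 3 peak.

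The single-list peaks were less often found in wild-type cells than shared ones. A wild-type list held 49.95% (interval 48.72 to 51.19%) of E12KO-only peaks, 42.96% (41.22 to 44.73%) of E47KO-only peaks and 92.19% of shared E12KO peaks. Nearly all of this came from wild-type replicate 3, the longest wild-type list with 24194 peaks. Replicate 3 held 46.03% of E12KO-only and 38.14% of E47KO-only peaks, and replicate 2 held 7.78% and 6.43%. Without replicate 3 the shares were 12.76% and 10.92%.

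Peaks called in all 3 wild-type lists and 1 knockout form a small set. It comprised 60 of the 6276 E12KO-only peaks and 10 of the 3049 E47KO-only peaks. Of the shared peaks, 4155 of 18953 in E12KO and 4143 of 19127 in E47KO were in all 3 wild-type lists. Among the 60, promoter peaks lay at Msl1, at Ddx3x, an X-linked RNA helicase (2180 bp), and at Lmo4, a LIM-domain cofactor (2055 bp). Pim1, a serine/threonine kinase gene, had 1757 bp, Klhl17 1827 bp, Nrxn2 1088 bp and Bcl2l11, which encodes the apoptosis activator BIM, 784 bp. The nearest E47KO peaks to those at Pim1 and Bcl2l11 were 660 and 672 bp away, whereas that to the Ddx3x peak was 62376 bp away. The 10 E47KO-only peaks of this kind lay near Gab1, Ints6, Sema5b, Ndp, Zfp608, Nuak1, Rab23, Sgk1, Trit1 and Afap1. All of these were 491 bp or narrower except those at Gab1 (1675 bp) and Ints6 (1201 bp).

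By nearest gene, 8742 of the 11116 genes named in either list had peaks in both. Peaks in E12KO only were recorded for 1691 genes (15.2%) and in E47KO only for 683 genes (6.14%). Most of them had 1 peak, namely 1523 of the 1691 and 648 of the 683. Every peak was itself unmatched for 1651 of the E12KO-only genes and 639 of the E47KO-only genes. The other 40 and 44 genes had a peak that overlapped one assigned to another gene in the other list. A promoter peak was present for 1142 E12KO-only genes (67.5%) and 376 E47KO-only genes (55.1%). At equal list length, with the widest 22176 peaks each, the knockouts gave 1346 and 966 genes. With 12772 peaks in every list, 16.4% of 8206 genes were in E12KO only and 12.8% in E47KO only. At that length, wild-type replicates 2 and 3 gave 22.6% of 8360 genes in replicate 3 only and 15.8% in replicate 2 only.

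The genes with most peaks in E12KO and none in E47KO had few peaks each. Lrrtm3, a postsynaptic adhesion gene, and Far1, a fatty acyl-CoA reductase gene, had 5. Lrrtm3 had 1 peak in wild-type replicate 2 and none in replicates 1 and 3. Of its E12KO peaks, 1 of 322 bp lay at the promoter, and the others of 235 to 939 bp were annotated to introns of a transcript with another gene identifier. Of those, 3 lay more than 500 kb upstream of the Lrrtm3 start. Lrp1 (endocytic receptor), Hus1 (DNA damage checkpoint clamp) and Creb1 (cAMP-responsive transcription factor) had 4 each, and Irf1 (interferon regulatory factor) and Homer2 (postsynaptic scaffold) had 3 each. All 3 Irf1 peaks and all 4 Hus1 peaks overlapped a wild-type peak, whereas 1 of the 4 Creb1 peaks did. In the other direction, Rnf169, Prdx6 (peroxiredoxin), Adcy8 (adenylyl cyclase) and Itgav (integrin αV) had 3 E47KO peaks each and none in E12KO, and Eci2, Cdc27, Dhx8 and Lrp12 had 2 each. Of the 2 Dhx8 peaks, 1 overlapped an E12KO peak assigned to another gene. Adcy8 and Dhx8 had no peak in any wild-type list.

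A difference of at least 3 peaks was found for 207 genes in favour of E12KO (1.86%) and for 40 in favour of E47KO (0.360%). At equal list length the order of the knockouts turned, with 71 genes in favour of E12KO and 128 in favour of E47KO. Within 10 kb of start sites the counts were 26 and 2. With 12772 peaks in every list they were 46 (E12KO) and 55 (E47KO), against 77 in favour of replicate 3 and 155 in favour of replicate 2 between those wild-type lists. Among the 1074 genes with at least 10 peaks in the knockout lists together, 126 had at least 3 more in E12KO (11.7%) and 22 in E47KO (2.05%).

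Several genes had many more peaks in E12KO. Ric8b, a chaperone gene of G protein alpha subunits, had 12 and 5 peaks, against 2, 6 and 5 in the wild-type replicates. Of its E12KO peaks 7 were unmatched, 293 to 488 bp wide, and 2 of these 7 overlapped a wild-type peak. Sept9 (a septin) and Nfib (a nuclear factor I gene of neural and glial development) each had 25 and 17. The wild-type replicates had 10, 14 and 20 peaks for Sept9 and 3, 12 and 22 for Nfib. Elmo1 had 22 and 15, Jmjd1c 19 and 13, and Tns3 24 and 18. Zfp608, the gene with most peaks in both lists, had 48 in E12KO and 41 in E47KO.

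The largest differences in favour of E47KO were 5 peaks. Rapgef2, a Rap1 exchange factor gene, had 5 peaks in E12KO and 10 in E47KO, against 1, 6 and 7 in the wild-type replicates. Its 5 unmatched E47KO peaks were 240 to 381 bp wide. Kat6b, a histone acetyltransferase gene, had 4 and 8, and 1810010D01Rik had 6 and 10. Plxna2, a semaphorin receptor gene, had 15 and 19, and Arhgef28 and Rnf144a both had 10 and 14. Gas8 had 21 and 26 peaks, all intergenic and within 67.2 kb of its start. The wild-type lists had 0, 19 and 13 peaks near Gas8.

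**Figure D4:**
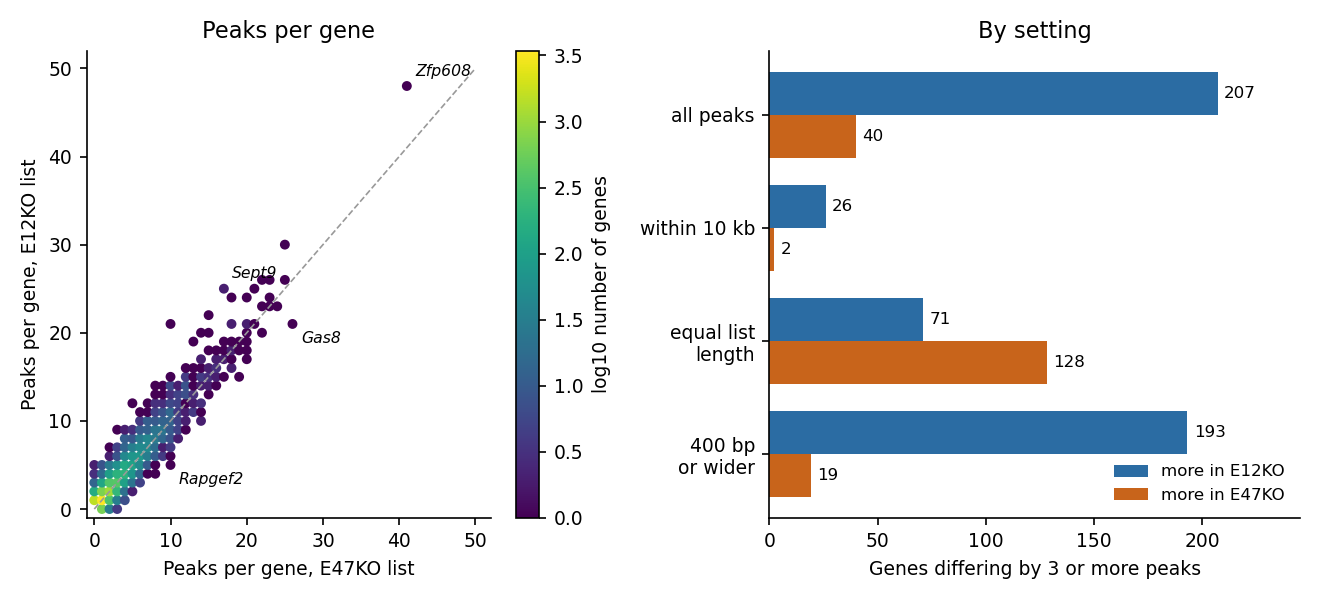
Left, peaks per gene in E47KO (x axis) and E12KO (y axis), coloured by the log10 number of genes at each point, with a dashed line at equality; right, number of genes (x axis) with at least 3 more peaks in one knockout, by setting, blue for E12KO and orange for E47KO. With all peaks the bars are 207 and 40, and at equal list length they are 71 and 128.

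The summed width of a gene's peaks did not always follow the peak number. Among the 8742 genes with peaks in both lists, 6432 (73.6%) had a greater summed width in E12KO, with a median of 1.19-fold. Hes1 had 7 peaks in E12KO and 10 in E47KO, yet they summed to 12636 bp and 10211 bp. Nes likewise had 4 and 6 peaks that summed to 9267 and 7362 bp. Of the 36 genes with at least 3 more peaks in E47KO and a peak in both, 8 had the greater summed width in E12KO.

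Genes were then described by 24 lists of neural, signalling and control genes, 505 genes in all. These lists were chosen with earlier results of these data known. Of the 505, 389 had a peak in either knockout, 38 of them in E12KO only (9.77%, against 15.2% of all genes) and 12 in E47KO only (3.08%, against 6.14%). Over all genes, 1523 of the 1691 in E12KO only and 648 of the 683 in E47KO only had 1 peak. A gene with many peaks is thus seldom in 1 list only. The shares were not compared at equal numbers of peaks per gene.

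Core factors of the pathway were bound in both knockouts. All 7 genes of E proteins and Id factors had peaks in both lists, 66 peaks in E12KO and 65 in E47KO. Tcf3 itself carried a promoter peak of 858 bp in E12KO and 997 bp in E47KO, and E12KO had a further peak of 258 bp upstream that wild-type replicate 3 shared. Tcf4 had 24 and 23 peaks and Tcf12 had 12 and 11. Of the inhibitors, Id1 had 4 and 4, Id2 had 6 and 7, Id3 had 8 and 9, and Id4 had 10 and 10. All 9 Hes and Hey genes, the effectors of Notch, were bound in both, with 28 peaks in E12KO and 32 in E47KO. All 25 neural stem cell factors were bound in both as well, with 160 and 154 peaks. Sox2 had 14 and 15, and Sox9 had 7 and 9.

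Among Notch ligands, receptors and modulators 19 of 22 bound genes were common to both. The share in E12KO only was 9.09% and that in E47KO only 4.55%, against 15.2% and 6.14% of all genes. Notch1 had 13 and 13 peaks and Dll1 had 4 and 5. The ligand gene Jag2 (433 bp) and the ubiquitin ligase gene Itch (494 bp) had promoter peaks in E12KO only, neither of them in a wild-type list. Numb, an inhibitor of Notch signalling, had a promoter peak of 461 bp in E47KO only, which wild-type replicates 2 and 3 also had.

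Cell cycle genes showed single-list promoters in both directions. Of the 15 bound cell cycle drivers, Ccne2 (cyclin E2, 1565 bp), Cdc25a (a phosphatase that activates CDKs, 1105 bp) and Mycl (679 bp) had promoter peaks in E12KO only. Wild-type replicate 3 had the Ccne2 and Cdc25a peaks. Of the 17 bound genes of CDK inhibitors and cell cycle exit, Rb1 (1026 bp) and E2f5 (529 bp) had promoter peaks in E12KO only. Rbl2, the pocket protein p130, had a promoter peak of 366 bp in E47KO only. An intergenic E12KO-only peak of 298 bp (chr9:123848797-123849094) carried the deposited symbol Cdkn2d. Whether Cdkn2d lies near that region was not checked. None of these 4 regions was in a wild-type list. The shares in E12KO only were 20% for the drivers and 17.6% for the inhibitor and exit genes, from 3 genes each, against 15.2% of all genes. The 17.6% counts Cdkn2d by that symbol. In E47KO only they were 0% and 5.88%, against 6.14%.

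Signalling pathways varied in their single-list members. In the BMP and TGF-β list 5 of 27 bound genes did, namely Acvr2b, Tgfbr1, Tgfb3, Bmp2 and Chrd, and none was in E47KO only. Their promoter peaks were 1104 bp at the activin receptor gene Acvr2b, 1062 bp at the receptor gene Tgfbr1, 886 bp at the BMP antagonist gene Chrd, 742 bp at Bmp2 and 714 bp at Tgfb3. Those at Acvr2b and Bmp2 were in no wild-type list. In the sonic hedgehog list 3 of 11 bound genes were in E12KO only. Among them, Smo, the signal transducer, had a promoter peak of 852 bp, and the repressor gene Sufu an intronic one of 297 bp. The main receptor gene Ptch1 had 12 and 13 peaks. In the FGF and EGF list Erbb3 and Tgfa were in E12KO only, and in the Wnt list Fzd2 was in E12KO only (promoter, 1234 bp) and Lef1 in E47KO only (intron, 270 bp). The shares in E12KO only, 18.5% for BMP and TGF-β and 27.3% for sonic hedgehog, rest on 5 and 3 genes and stand beside 15.2% for all genes. The shares of the FGF and EGF list (8%) and of the Wnt list (3.85%, equal in both directions) were below it. Within 10 kb of start sites this order was not kept. The shares in E12KO only were then 34.8% (BMP and TGF-β), 28.6% (Wnt), 20% (sonic hedgehog) and 16% (FGF and EGF). They stand beside 1906 of 8555 genes. In E47KO only the shares were 8.7%, 0%, 0% and 8%, beside 722 of 8555 genes.

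Lineage genes were mostly bound in both. Of 27 bound projection neuron genes, 4 had peaks in E12KO only, among them Eomes, an intermediate progenitor factor (promoter, 381 bp, and an intergenic peak of 274 bp), Elavl3 and Stmn2. Of 9 bound proneural genes, Neurod2 and Nhlh1 were in E12KO only, through intergenic peaks of 276 to 662 bp. The shares in E12KO only were 14.8% for projection neuron and 22.2% for proneural genes, against 15.2% of all genes. Glul, the astrocytic glutamine synthetase gene, was in E47KO only (promoter, 811 bp), 6.25% of the bound astrocyte genes against 6.14% of all genes. Gpr17, of the oligodendrocyte lineage (promoter, 497 bp), and Gad1, of interneurons (intergenic, 297 bp), were in E12KO only. They made up 7.14% and 8.33% of their bound lists, below the share of all genes. Of markers of cells other than neural ones, 3 of 13 microglial, 6 of 12 endothelial and 7 of 14 mural and fibroblast markers were bound. Of the neural lists, 9 of 17 proneural, 12 of 21 interneuron and 14 of 17 oligodendrocyte genes were bound. So were 16 of 18 astrocyte, 27 of 28 projection neuron and 25 of 25 neural stem cell genes. The microglial share was the lowest of these. The endothelial and the mural and fibroblast shares were also below every neural list, though close to the proneural one. The microglial, endothelial, and mural and fibroblast lists had 2, 13 and 13 peaks in E12KO and 3, 10 and 9 in E47KO. Csf1r (microglial, 33.3% of bound members) and Col1a2 (mural and fibroblast, 14.3%) had peaks in E47KO only, against 6.14% of all genes. Eng (endothelial, 16.7%) and Dcn (mural and fibroblast, 14.3%) had peaks in E12KO only, against 15.2%. Each of these shares rests on 1 gene. Binding near a marker does not measure its expression.

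Synaptic adhesion genes carried more peaks in E12KO. The 29 bound members had 240 peaks in E12KO and 197 in E47KO, a ratio of 1.22 against 1.14 for all peaks with a gene name. At least 3 more E12KO peaks were found for 8 of 29, and none had 3 more in E47KO. Among the 8 were Opcml (20 and 14), Cadm1 (14 and 10), Cadm2 (9 and 5), Kirrel3 (14 and 11), Ctnnd2 (11 and 8), Nrxn2 (9 and 6) and Lrrtm3. Among members with at least 10 peaks in all, 7 of 19 met this difference, against 11.7% of all such genes. At equal list length 3 members had at least 3 more in E12KO and 3 in E47KO, so the direction was not kept. In E47KO only were Cntnap2 (241 bp, intergenic) and Cntnap5a (321 and 298 bp, intronic), 6.9% of the bound members and near the 6.14% of all genes. Among the 36 axon guidance genes, all bound, there were 208 and 204 peaks. At least 3 more were found in E12KO for 1 gene (2.78%, against 1.86% of all genes) and in E47KO for 2 (5.56%, against 0.36%). At equal list length they had 171 peaks in E12KO and 204 in E47KO, and at least 3 more in E47KO for 7 genes (19.4%, against 1.19% of all genes) and in E12KO for none. The 2 shares are not alike, because most genes have too few peaks to differ by 3. Of the 36, 18 had at least 10 peaks in the full knockout lists together, against 1074 of all 11116 genes. With the full lists, 1 of these 18 had at least 3 more in E12KO and 1 in E47KO (5.56% each). Of all such genes, 11.7% and 2.05% did. The share among such genes was not computed at equal list length. For both lists the counts thus depend on the narrow E12KO peaks. Unc5a, a netrin receptor gene, had 1 and 4 peaks. Robo3 had peaks in E12KO only and Slit3 in E47KO only, 2.78% each against 15.2% and 6.14% of all genes.

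Genes serving as controls for general transcription gave single-list peaks too. Of 22 bound ribosomal protein genes, 5 were in E12KO only (22.7%, against 15.2% of all genes). Among them were Rpl5, Rpl8, Rpl13 and Rps9 with promoter peaks of 338 to 739 bp. Rpl15 and Rpl19 were in E47KO only (9.09%, against 6.14% of all genes), without a promoter peak. Of 13 bound housekeeping genes, Gusb was in E12KO only and Tubb5 in E47KO only (7.69% each). The 8 bound lymphoid targets of E2A were all bound in both, as were 8 of the 9 bound skeletal muscle genes, with Myh3 in E12KO only (11.1%).

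**Figure D5:**
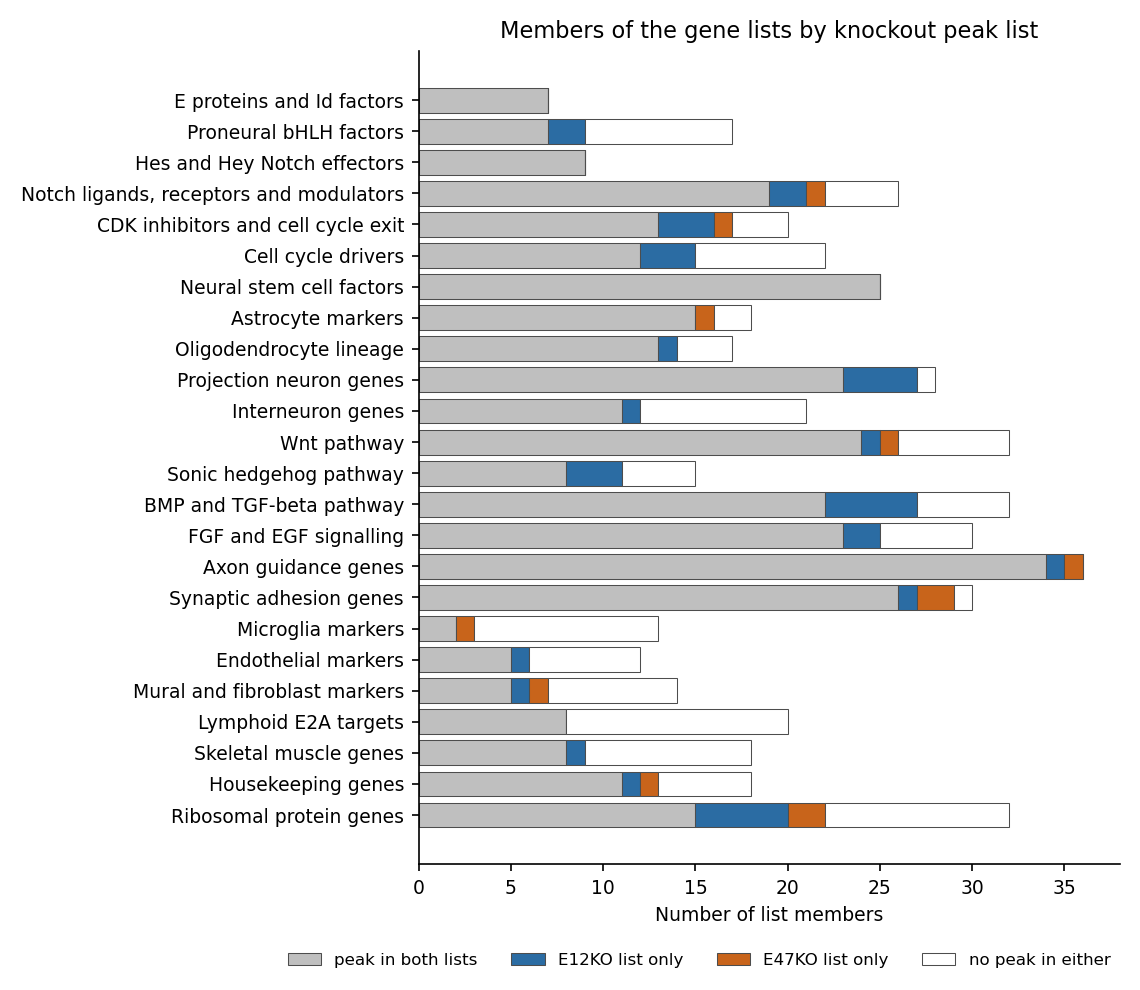
Members of the 24 gene lists (x axis, number of genes) with a peak in both knockouts (grey), in E12KO only (blue), in E47KO only (orange) or in neither (white). The E protein and Id, Hes and Hey, and neural stem cell lists have no member in 1 knockout only, and ribosomal protein genes have 5 and 2.

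Promoter sequences of 6 genes with a single-list promoter peak are shown so that the E-box letters near these start sites can be read. Of the 6, Bmp2k also had 2 E12KO peaks away from its promoter. The sequences are from RefSeq (GRCm38.p6), 250 bases before to 50 after the start on the gene's own strand, 5′ to 3′, with every CANNTG in capitals. Positions are counted from the first transcribed base as 0. The peaks themselves are placed on mm9, so the peak borders are not drawn on these letters. In the deposited annotation the peak lies over the start site in 5 of the 6 genes and 9 bp from it in Rbl2. The first 3 had a promoter peak in E12KO only and the last 3 in E47KO only.
Chrd (E12KO only, chr16:20732877-20733176, plus strand): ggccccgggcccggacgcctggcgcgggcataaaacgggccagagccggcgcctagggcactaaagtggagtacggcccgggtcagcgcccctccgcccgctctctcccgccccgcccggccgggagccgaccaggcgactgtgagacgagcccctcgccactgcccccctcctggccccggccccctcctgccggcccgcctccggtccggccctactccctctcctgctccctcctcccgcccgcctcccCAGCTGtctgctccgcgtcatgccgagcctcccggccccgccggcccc
Cdc25a (E12KO only, chr9:109875329-109875628, plus strand): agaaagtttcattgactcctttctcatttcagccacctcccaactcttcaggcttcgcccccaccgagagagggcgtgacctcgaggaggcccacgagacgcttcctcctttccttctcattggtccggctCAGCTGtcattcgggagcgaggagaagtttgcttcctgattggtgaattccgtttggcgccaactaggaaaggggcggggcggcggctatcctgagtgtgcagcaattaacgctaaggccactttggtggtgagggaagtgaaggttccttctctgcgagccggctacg
Smo (E12KO only, chr6:29735247-29735546, plus strand): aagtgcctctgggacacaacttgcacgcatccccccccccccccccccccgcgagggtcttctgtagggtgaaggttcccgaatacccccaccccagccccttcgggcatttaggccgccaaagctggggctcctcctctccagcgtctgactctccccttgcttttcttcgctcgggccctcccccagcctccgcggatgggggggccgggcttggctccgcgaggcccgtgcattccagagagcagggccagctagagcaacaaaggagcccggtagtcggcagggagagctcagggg
Glul (E47KO only, chr1:153899679-153899978, plus strand): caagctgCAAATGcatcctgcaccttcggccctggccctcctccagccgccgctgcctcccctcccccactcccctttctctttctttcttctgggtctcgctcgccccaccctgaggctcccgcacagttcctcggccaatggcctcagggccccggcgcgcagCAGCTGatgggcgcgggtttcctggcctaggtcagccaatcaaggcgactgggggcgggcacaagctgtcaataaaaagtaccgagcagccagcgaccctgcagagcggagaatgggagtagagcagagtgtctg
Bmp2k (E47KO only, chr5:96997439-96997738, plus strand): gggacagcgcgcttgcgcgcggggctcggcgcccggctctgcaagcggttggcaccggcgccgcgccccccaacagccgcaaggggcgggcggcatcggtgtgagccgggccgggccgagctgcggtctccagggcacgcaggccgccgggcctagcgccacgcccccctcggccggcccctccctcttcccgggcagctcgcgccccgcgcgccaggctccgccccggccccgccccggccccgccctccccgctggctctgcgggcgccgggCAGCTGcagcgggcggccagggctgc
Rbl2 (E47KO only, chr8:91069807-91070106, plus strand): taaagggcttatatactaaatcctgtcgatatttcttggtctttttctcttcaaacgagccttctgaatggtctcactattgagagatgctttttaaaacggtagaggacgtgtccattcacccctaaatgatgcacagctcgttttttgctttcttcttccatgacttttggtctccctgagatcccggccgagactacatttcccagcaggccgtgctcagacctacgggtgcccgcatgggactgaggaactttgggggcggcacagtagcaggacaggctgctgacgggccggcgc

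The hexamer CAGCTG occurred at 2 in Chrd, at -119 in Cdc25a, at 24 in Bmp2k and at -85 in Glul, which also holds CAAATG at -243. Smo and Rbl2 hold no CANNTG in this window. E-box letters thus occurred, and were missing, on both sides. Of the RefSeq genes, 22862 with exactly 1 listed promoter were used. CANNTG was present in 60.94% (interval 58.11 to 63.71%) of 1165 promoters with an E12KO-only peak, in 64.86% (60.31 to 69.16%) of 444 with an E47KO-only peak, in 59.71% of 2693 with a peak in both and in 72.42% of all promoters of this length. CAGCTG, which reads the same on both strands, was present in 14.08%, 13.74%, 16.45% and 16.06%, and CAGGTG or its complement CACCTG in 16.57%, 18.02%, 15.71% and 20.02%. The intervals of the 2 single-list classes overlapped for each motif. The bound promoters were rich in CG dinucleotides, with a median of 23 (E12KO only), 21 (E47KO only) and 24 (both) per 300 bases, against 7 over all promoters.

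Chromosomes differed little. The ratio of E12KO to E47KO peaks was 1.09 to 1.17 on the autosomes and 1.22 on the X chromosome (509 and 417 peaks). The E12KO-only share on X was 30.5% (interval 26.61 to 34.58%) against 24.9% over all chromosomes, and at equal list length the X ratio was 1.00. The Y chromosome had no peak in E12KO or in any wild-type list and 3 in E47KO. Of these, 1 lay at the promoter of Eif2s3y, a Y-linked translation initiation factor gene (chrY:346615-347043, 429 bp), and the others, of 232 and 218 bp, were nearest to H2al2c. The labels give no sex for the embryos.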

How the data were processed

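Per the labels, E2A ChIP-seq libraries came from 1 E12KO, 1 E47KO and 3 wild-type samples of neural stem cells, with 1 input that was not used here. The submitters' processing notes name the mm9 build and the tools BWA (0.7.13), Picard (1.119) and MACS2 (2.1.0). How each was set is not given in the sources used, and other thresholds would change list lengths and overlaps. Per the file headers, the authors deposited per library the position, width, annotated feature, signed distance to the start site and nearest gene of each peak. No score per peak is in the knockout lists.

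Overlaps of at least 1 bp were computed in Python 3.11.15 with pandas 2.3.3 and numpy 2.4.6, on all chromosomes, and the matching was tested on simulated intervals. Wilson intervals came from closed formulas, and intervals of medians from order statistics. Peaks were assigned to genes by the deposited symbol, which 74 E12KO and 64 E47KO peaks lacked. Named features were chosen by rule: per direction the 10 widest single-list peaks, the 5 widest at promoters, the 8 genes with most peaks in 1 list only, the 8 with the largest difference in peaks, the 5 largest width ratios (narrower peak at least 300 bp), and every gene list member in 1 list only. The 10 widest shared peaks, the 5 genes with most peaks and Tcf3 were added. Other genes named, and the 6 promoters printed, were chosen after their values were seen. Some features that this rule selects are not reported here. The comparison, the rule and the gene lists were chosen with earlier results of these data known. Promoter letters were searched in RefSeq's GRCm38.p6 table. Alternatives were other overlap rules, equal list length, a 400 bp width minimum, autosomes only, peaks within 10 kb of the start site, promoter peaks within 300 bp, and leaving out each wild-type replicate. The comparisons at 12772 peaks, the genes of at least 10 peaks and the CG counts were added after seeing the data.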

Additional observations from a re-analysis of the deposited data

How the results depend on the processing

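No paired analysis was possible because each knockout has 1 library and no result comes from a test. Requiring the overlap to cover 50% of each peak gave 4977 E47KO-only peaks, median widths of 486 bp (E12KO only) and 383 bp (E47KO only), promoter shares of 35.82% and 31.59%, median distances of 9146 and 11669 bp, and a median log2 width ratio of 0.14. At equal list length the median widths were 522 and 333 bp, the promoter shares 41.33% and 20.1%, the median distances 5334 and 22941 bp, the genes with at least 3 more peaks 71 (E12KO) and 128 (E47KO), and the X chromosome ratio 1.00. With peaks of at least 400 bp there were 1933 E47KO-only peaks and 19 genes with at least 3 more in E47KO. Within 10 kb of start sites 26 and 2 genes differed by at least 3 peaks, and 63 gene list members were in E12KO only (19.6%, beside 1906 of 8555 genes). The E12KO-only share was then 32% in the axon guidance list and 12% in the neural stem cell list, against 2.78% and 0% at any distance. Leaving out 1 wild-type replicate gave 12.76% to 48.26% of E12KO-only and 10.92% to 41.06% of E47KO-only peaks held by a wild-type list, the lowest values without replicate 3. The cause of these shifts was not tested, beyond the fewer and wider E12KO peaks that equal length leaves by construction.

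The E12KO-only count stayed above the E47KO-only count for peaks and for genes in every setting listed. The count of genes differing by at least 3 peaks did not keep its order. The read depth and calling threshold of the knockout lists are unknown, an absent call is not an absent site, and 1 library per knockout leaves genotype and library impossible to tell apart.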
